A study of Mus musculus with 27 samples.

Results

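Lipoprotein lipase and the proteins that fold, carry and inhibit it were followed in cultured mouse fat cells over 48 h of rosiglitazone. The 7 genes were Lpl itself, Lmf1, Gpihbp1 and the angiopoietin-like genes Angptl1, Angptl2, Angptl4 and Angptl8. A gene counted as measured where a probe set of the array was annotated to its symbol alone, which held for 6 of the 7, among 18781 genes in all. Each of the 6 had 1 such probe set, and none was annotated to Angptl2, which was not analysed here.

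The cells were mature 3T3-L1 adipocytes, fat cells obtained in culture from a mouse preadipocyte line with dexamethasone, insulin and 3-isobutyl-1-methylxanthine. Total RNA of each sample went onto its own Affymetrix array (Mouse Gene 1.1 ST), 27 in all. Untreated cells, taken at time 0, had 3 arrays, as did each of the 8 exposures to 1 µM rosiglitazone, which lasted 30 min or 1, 2, 6, 12, 24, 36 or 48 h. Rosiglitazone, given in DMSO, activates PPARγ, the nuclear receptor that drives the fat cell programme. The series' design text names DMSO beside rosiglitazone as a treatment, but no sample used here is labelled as DMSO-treated. The control was the untreated cells at time 0 throughout, so drug, vehicle and time in culture cannot be told apart, and the 8 comparisons with untreated share those 3 arrays. The labels do not say whether replicates were separate cultures, so the p-values reflect array-to-array spread that could be purely technical.

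Lipoprotein lipase is secreted by fat cells and frees fatty acids from the triglyceride of circulating lipoproteins, so that fat can take them up. LMF1 matures the enzyme in the endoplasmic reticulum, and GPIHBP1, a protein of capillary endothelial cells, carries it to the vessel lumen. ANGPTL4 inactivates the enzyme and is a classical PPAR target and fasting-induced protein, whereas ANGPTL8 is induced by feeding and insulin and works in complexes with other members of its family. ANGPTL1 is a secreted relative better known for effects on blood vessels.

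Values are log2 intensities, on which a difference of 1 is a doubling of signal. They ran from 1.67 to 13.19 over all probe sets, with array medians from 4.02 to 4.13. Changes are log2 differences ± SE with n = 3 arrays per group, from a limma model of all arrays, and "rose" or "fell" is used where the Benjamini-Hochberg adjusted p over all genes was below 0.05. The 12 adipocyte markers, among them Adipoq, Plin1 and Cidec, had means at or above percentile 95.8 of all genes. Of 14 endothelial markers, 13 were below the median gene, with means from 2.79 to 4.81 over the list. Of 11 preadipocyte and fibroblast markers, 2 were below the median, and Dlk1, a marker of undifferentiated cells, lay at percentile 96. The 8 macrophage markers ran from 2.59 to 4.97, with 7 below the median.

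Over the whole course 3 of the 6 genes changed by the limma F-test, Angptl4 (adjusted p = 7.1e-11), Angptl8 (adjusted p = 5.38e-07) and Angptl1 (adjusted p = 1.69e-12), where 40.5% of all genes did. Their group means spanned 1.11, 1.06 and 1.70 on the log2 scale, wider than the spans of at least 98.25% of genes. Lpl, Lmf1 and Gpihbp1 spanned 0.22, 0.23 and 0.21 and were not called (adjusted p = 0.0781, 0.0614 and 0.847). Lmf1 was called after centring each array on its median (adjusted p = 0.02), after a further quantile normalization (adjusted p = 0.0467) and with array weights (adjusted p = 0.0143). Both Lpl and Lmf1 were called among brighter genes alone (adjusted p = 0.0259 and 0.028), where 72.1% of the genes tested were called. The 3 measured angiopoietin-like genes each took a different course. Angptl4 was higher from 30 min to 48 h and Angptl8 was lower at 1 h and 2 h. Angptl1 was higher from 1 h to 12 h and then lower.

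**Figure D1:**
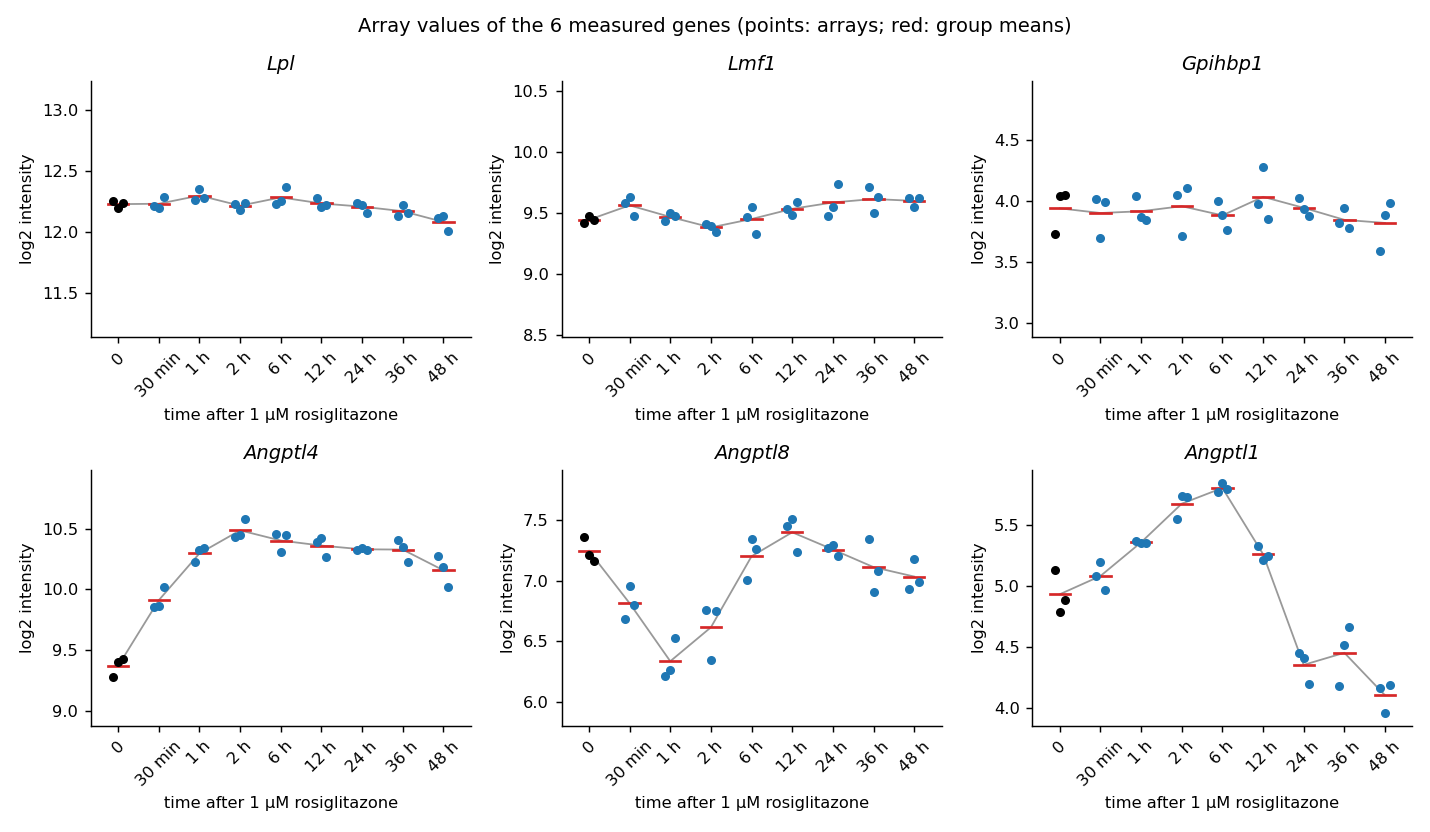
Log2 intensity of each array (points, black for untreated and blue for treated cells) against time after 1 µM rosiglitazone for the 6 measured genes, with red bars at the means of 3 arrays and every panel spanning the same range. Angptl4 climbs from 9.37 to 10.48 by 2 h, Angptl8 dips to 6.34 at 1 h, Angptl1 peaks at 5.80 at 6 h and ends at 4.10, and the upper panels stay nearly level.

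The 250 bases before the annotated start were matched by symbol in RefSeq (build GRCm38.p6) for 4 of the 7 genes, Angptl1, Angptl2, Angptl8 and Lmf1. The windows of Angptl1 and Angptl8 are printed, since both genes changed and did so in opposite directions at 1 h and 2 h. Each is given 5′ to 3′ on the gene's strand, the forward strand for both, with motif matches in capitals. Angptl1 is at chr1:156838773-156839022 and Angptl8 at chr9:21835260-21835509.
Angptl1: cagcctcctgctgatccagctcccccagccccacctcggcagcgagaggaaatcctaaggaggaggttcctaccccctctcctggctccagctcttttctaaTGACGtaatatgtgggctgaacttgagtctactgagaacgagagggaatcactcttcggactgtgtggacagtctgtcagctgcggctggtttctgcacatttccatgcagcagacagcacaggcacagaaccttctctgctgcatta
Angptl8: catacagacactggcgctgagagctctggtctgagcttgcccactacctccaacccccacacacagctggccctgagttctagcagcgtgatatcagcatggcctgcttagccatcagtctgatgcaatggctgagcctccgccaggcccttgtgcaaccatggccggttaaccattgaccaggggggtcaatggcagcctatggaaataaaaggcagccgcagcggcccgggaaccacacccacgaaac
Motifs were searched on both strands. The windows hold no match to the nuclear receptor direct repeat spaced by 1 base, found in 0.0335% of 32851 such windows, or to its half-site AGGTCA, found in 14% of them and contained in the repeat. Neither window holds the E-box CACGTG (6.02% of windows), the TATA box TATAAA (12.4%) or the CCAAT box (33.8%). The cAMP response element half-site TGACG, present in 17.8% of windows, occurs once in that of Angptl1, 148 bases before the start, and is absent from that of Angptl8. It also occurs in the windows of Angptl2 (165 bases before the start) and Lmf1 (187 bases), so that 3 of the 4 matched windows hold it. A match describes letters in these windows and shows no binding. Only exact matches were searched, so a missing match does not show that binding is absent.

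Lpl, the enzyme, was among the brightest genes of these cells at every time. Its mean of 12.21 over the 27 arrays was exceeded by 10 genes. Untreated arrays read 12.25, 12.19 and 12.24, the 1 h arrays 12.26, 12.35 and 12.28, and the 48 h arrays 12.11, 12.13 and 12.00. Those of 1 h all lay above the untreated arrays and those of 48 h all below, while the groups at the 6 other times overlapped with untreated. The change was 0.07 ± 0.056 at 1 h (limma adjusted p = 0.753), and at 48 h it was -0.15 ± 0.056 (adjusted p = 0.0602, 95% interval -0.26 to -0.03). None of the 8 times was called against untreated, and their 95% intervals together ran from -0.26 to 0.19.

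Between treated times, Lpl fell by 0.22 on the log2 scale from 1 h to 48 h (SE 0.056, adjusted p = 0.00519) and by 0.20 from 6 h to 48 h (adjusted p = 0.0113). The 48 h arrays lay below all arrays of both earlier times, and these were the 2 pairs called among 36, where 25% and 19.8% of all genes were called. Without replicate 3 of every group the first was -0.19 (adjusted p = 0.0964) and the second -0.12 (adjusted p = 0.348). The call from 6 h to 48 h ended without the 6 h replicate 3 (-0.16, adjusted p = 0.0817) and without the 48 h replicate 3 (-0.16, adjusted p = 0.0752). After a further quantile normalization both pairs missed the threshold (-0.15, adjusted p = 0.0545, and -0.14, adjusted p = 0.0782). In the order of group means, from 48 h (12.08) to 1 h (12.30), no neighbouring times differed. Among the 45 genes with a mean no more than 0.5 below that of Lpl, 11 were called at 48 h against untreated, or 24.4%, close to the 24% of all genes, and the widest span of group means was 0.45.

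Lmf1, the maturation factor, was also bright, with a mean of 9.52. Untreated arrays read 9.42, 9.48 and 9.44, the 2 h arrays 9.41, 9.39 and 9.35, and the 36 h arrays 9.71, 9.50 and 9.63. The lowest group was 2 h and the highest 36 h, and neither overlapped with untreated. Against untreated, the change was -0.06 ± 0.07 at 2 h (limma adjusted p = 0.738), 0.17 ± 0.07 at 36 h (adjusted p = 0.0891), and last 0.15 ± 0.07 at 48 h (adjusted p = 0.118), so none was called. It was called at 36 h after centring each array on its median (0.25, adjusted p = 0.0151), with array weights (0.18, adjusted p = 0.0178), among brighter genes alone (0.17, adjusted p = 0.0455) and without the 36 h replicate 2 (0.23, adjusted p = 0.0341), and at 24 h only after centring (0.22 against 0.14, adjusted p = 0.0338 against 0.176).

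Lmf1 was higher at the late times than at 2 h. The increase from 2 h was 0.20 ± 0.07 at 24 h (adjusted p = 0.0392, and 0.18, adjusted p = 0.0731, after a further quantile normalization), 0.23 at 36 h (adjusted p = 0.0179), and finally 0.22 at 48 h (adjusted p = 0.0244), where 20.3%, 20.4% and 23.7% of all genes were called. Each of these calls ended without single arrays. At 36 h these were the 2 h replicate 3 (0.21, adjusted p = 0.069), the 36 h replicate 1 (0.18, adjusted p = 0.0929) and the 36 h replicate 3 (0.23, adjusted p = 0.0547). At 48 h they were the 2 h replicates 2 and 3 and the 48 h replicates 1 and 3 (0.20 to 0.22, adjusted p from 0.0551 to 0.0864). At 24 h they were every 2 h array and the 24 h replicates 2 and 3 (0.13 to 0.22, adjusted p from 0.0622 to 0.249). No neighbouring times in the order of its group means differed.

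Gpihbp1, the endothelial carrier, was dim, with a mean of 3.91 at percentile 43.5 of all genes. Its 27 arrays lay between 3.59 and 4.28. Untreated arrays read 3.73, 4.04 and 4.05, and the 48 h arrays 3.59, 3.89 and 3.98, which overlapped. The largest difference from untreated was -0.12 ± 0.12 at 48 h (limma adjusted p = 0.544), and 0 of 36 pairs of groups were called for this gene. Its 95% intervals against untreated together ran from -0.37 to 0.35. The endothelial markers, among which Gpihbp1 would belong in tissue, averaged between 3.29 and 3.41 on the untreated arrays and between 3.24 and 3.33 at 48 h.

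Angptl4, the lipoprotein lipase inhibitor, was the gene of this set that was called at every time. At 30 min it was the 1 member called, where 0.0479% of all genes were. Untreated arrays read 9.28, 9.40 and 9.43. The 30 min arrays read 9.85, 9.87 and 10.02, the 1 h arrays 10.23, 10.32 and 10.34, and the 2 h arrays 10.43, 10.45 and 10.58. Each of these groups lay wholly above the one before it. The 6 h arrays read 10.45, 10.31 and 10.45, the 12 h arrays 10.39, 10.42 and 10.27, and the 24 h arrays 10.32, 10.34 and 10.32. The 36 h arrays read 10.41, 10.35 and 10.23, and the 48 h arrays 10.27, 10.18 and 10.02. From 6 h on every array lay below the 2 h mean, the 48 h arrays lay below all 6 h arrays, and no treated array overlapped with untreated.

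The increase in Angptl4 was 0.54 at 30 min, 1.11 at 2 h and 0.79 at 48 h, each with an SE of 0.073 (limma adjusted p = 0.000841, 2.81e-10 and 1.03e-08), or 1.45-fold, 2.16-fold and 1.72-fold. In a ranking of increases over all genes it stood at place 17 after 30 min, 9 after 1 h, 10 after 2 h, 26 after 12 h and 142 after 48 h. No single array ended the call at 30 min, but it ended in models of 2 arrays per group (0.52 to 0.58, adjusted p from 0.0557 to 0.115) and of the 6 arrays compared (0.54, adjusted p = 0.0736). The step from 30 min to 1 h was 0.38 ± 0.073 (adjusted p = 0.0114). That call ended without the 30 min replicate 1 (0.35, adjusted p = 0.0639), the 30 min replicate 2 (0.36, adjusted p = 0.0982) or the 1 h replicate 3 (0.36, adjusted p = 0.0777). The step from 1 h to 2 h was 0.19 and was not called (adjusted p = 0.234).

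After 2 h the level of Angptl4 came down in part. It fell by 0.33 on the log2 scale from 2 h to 48 h (SE 0.073, adjusted p = 0.00136, where 23.7% of all genes were called), a call that held without any single array but not without replicate 3 of every group (-0.21, adjusted p = 0.0909). From 6 h to 48 h it fell by 0.24 (adjusted p = 0.0182), and this call ended without the 6 h replicate 1 (-0.22, adjusted p = 0.0742), the 6 h replicate 3 (-0.22, adjusted p = 0.0714) or the 48 h replicate 3 (-0.17, adjusted p = 0.135). In the order of group means, untreated (9.37) was below 30 min (9.91, adjusted p = 0.000841) and 30 min below 48 h (10.16, adjusted p = 0.0133, where 26.5% of all genes were called). The second of these calls ended without the 30 min replicate 1 (0.21, adjusted p = 0.0646), the 30 min replicate 2 (0.22, adjusted p = 0.0575) or the 48 h replicate 1 (0.19, adjusted p = 0.0894). From 48 h up through 1 h, 36 h, 24 h, 12 h and 6 h to 2 h, no neighbours differed.

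Angptl8, the feeding-induced inhibitor, dipped early and recovered. Untreated arrays read 7.36, 7.21 and 7.16, and the 30 min arrays 6.69, 6.95 and 6.80. The 1 h arrays read 6.21, 6.27 and 6.53, and the 2 h arrays 6.75, 6.35 and 6.75. All 9 of these treated arrays lay below the 3 untreated ones. The 6 h arrays read 7.00, 7.34 and 7.25, the 12 h arrays 7.45, 7.50 and 7.24, and the 24 h arrays 7.27, 7.30 and 7.20. The 36 h arrays read 7.34, 6.91 and 7.08, and the 48 h arrays 6.93, 7.18 and 6.99. From 6 h on, every group overlapped with untreated.

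The change of Angptl8 was -0.43 ± 0.12 at 30 min, which was not called (limma adjusted p = 0.34). It was -0.91 ± 0.12 at 1 h (adjusted p = 7.75e-05) and then -0.63 ± 0.12 at 2 h (adjusted p = 0.00114), to 0.534 and 0.648 of the untreated signal. In a ranking from the lowest change up, it stood at place 5 of 18781 genes at 1 h and 85 at 2 h. From 2 h to 6 h it rose by 0.58 ± 0.12 (adjusted p = 0.00205), and from 1 h to 12 h by 1.06 ± 0.12 (adjusted p = 6.14e-07, where 17.5% of all genes were called). Without replicate 2 of every group the step from 2 h to 6 h was 0.38 (adjusted p = 0.122). At 12 h and 24 h the differences from untreated were 0.15 and 0.01 (adjusted p = 0.444 and 0.969), with 95% intervals of -0.09 to 0.40 and -0.23 to 0.26. At 48 h the difference was -0.21 (adjusted p = 0.226). From 12 h to 48 h Angptl8 fell by 0.36 ± 0.12 (adjusted p = 0.0458), where 12.5% of all genes were called. That call ended with array weights (-0.33, adjusted p = 0.0987), without the 12 h replicates 1 or 2 (-0.34 and -0.31, adjusted p = 0.124 and 0.173) and without the 48 h replicates 1 or 3 (-0.31 and -0.34, adjusted p = 0.139 and 0.131). No neighbours in the order of group means, from 1 h (6.34) up to 12 h (7.40), differed.

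**Figure D2:**
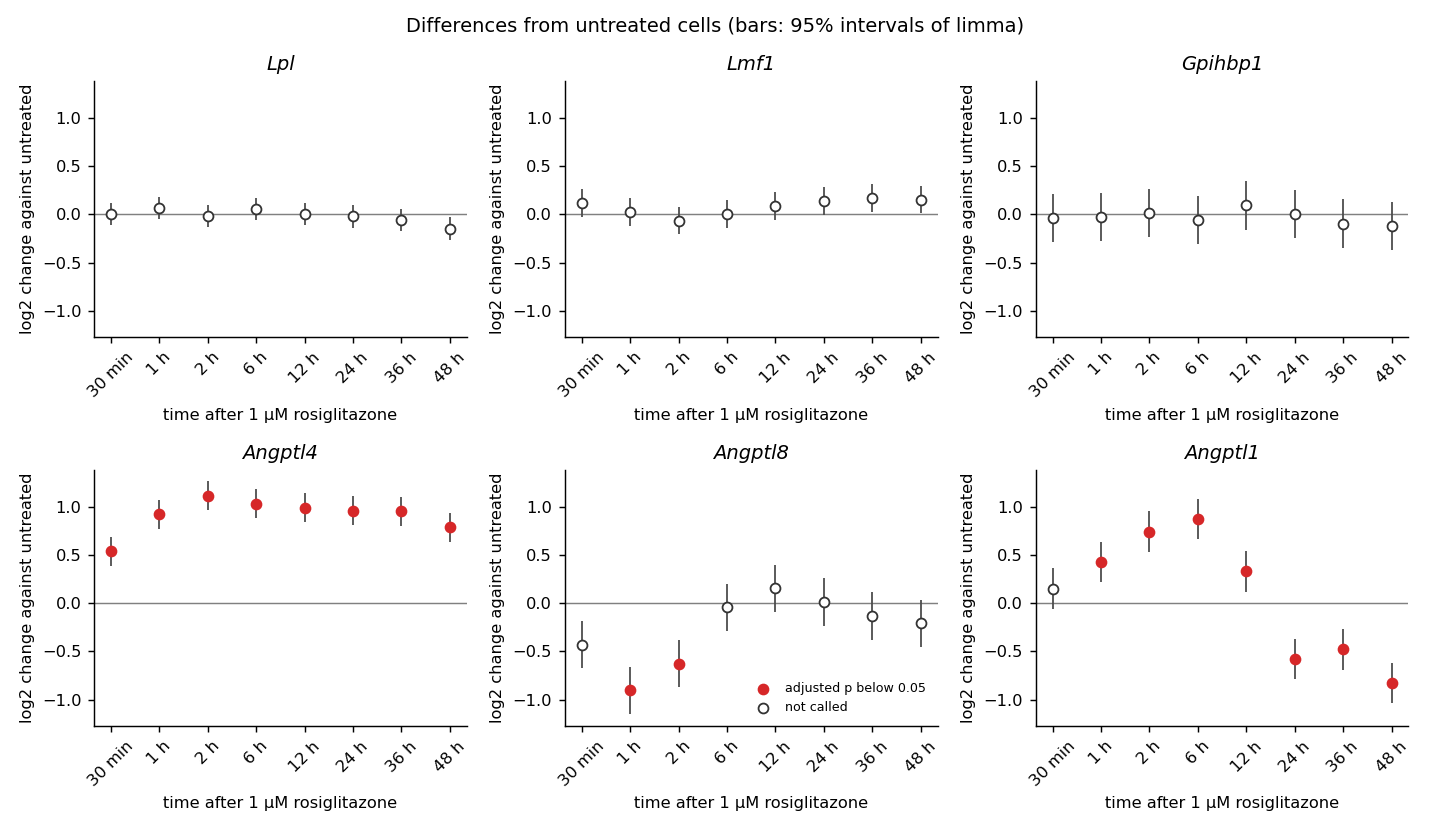
Log2 change against untreated cells at each time after 1 µM rosiglitazone, with 95% intervals from limma and filled red points where the adjusted p was below 0.05. Angptl4 lies above 0 at all 8 times, Angptl8 is called at 1 h and 2 h alone, Angptl1 crosses from 0.33 at 12 h to -0.58 at 24 h, and no point of Lpl, Lmf1 or Gpihbp1 is filled.

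At 1 h 3 of the 6 genes were called, 2 higher and 1 lower (0.99% of all genes were called), and at 2 h the same counts held (5.91%). At 6 h and 12 h Angptl4 and Angptl1 were higher and the other 4 were not called (16.6% and 18.9%). At 24, 36 and 48 h Angptl4 was higher, Angptl1 was lower and 4 were not called (20.7%, 21.4% and 24%). Split by direction, increases were called for 0.474%, 3.04%, 8.39%, 9.48%, 10.1%, 10.9% and 12.6% of all genes at the 7 times from 1 h on, and decreases for 0.516%, 2.87%, 8.18%, 9.38%, 10.5%, 10.5% and 11.4%. After centring each array on its median, increases made up 76.5% of called genes at 6 h in place of 50.6%, and 65.9% at 48 h in place of 52.5%. Between successive treated times 1 of the 6 genes was called from 30 min to 1 h (0.623% of all genes), none from 1 h to 2 h (1.88%), and 1 each from 2 h to 6 h (9.16%), 6 h to 12 h (1.17%) and 12 h to 24 h (2.93%). None was called from 24 h to 36 h (0.154%) or from 36 h to 48 h (0.016%). The median change of the 6 genes was 0.002 at 2 h and -0.13 at 48 h, beside -0.004 and 0.013 for all genes. The share of all genes whose 3 treated arrays did not overlap with untreated was 15.5% after 30 min, 16.6% after 1 h and 24.7% after 2 h. It was 32.4%, 32%, 35.2%, 31.2% and 36% at the later times in order.

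Angptl1, the vascular relative, first rose and then fell below its starting level. Its mean over all arrays lay at percentile 51.63 of all genes. The 48 h mean of 4.10 was within the range of array medians (4.02 to 4.13), not far above the mean of the dim Gpihbp1 (3.91). The effect of so low a signal on its fold changes was not tested. Untreated arrays read 5.13, 4.78 and 4.88, and the 30 min arrays 5.08, 5.20 and 4.97, which overlapped. The 1 h arrays read 5.37, 5.35 and 5.35, the 2 h arrays 5.55, 5.74 and 5.73, and the 6 h arrays 5.77, 5.84 and 5.80. From 1 h on each of these groups lay wholly above the one before. The 12 h arrays read 5.32, 5.21 and 5.25, between the 6 h and the untreated arrays. The 24 h arrays read 4.45, 4.41 and 4.19, the 36 h arrays 4.18, 4.51 and 4.66, and the 48 h arrays 4.16, 3.96 and 4.19. All 9 late arrays lay below the untreated ones.

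Angptl1 rose by 0.74 ± 0.10 at 2 h and 0.87 ± 0.10 at 6 h (limma adjusted p = 2.02e-05 and 1.09e-06), or 1.67-fold and 1.83-fold. Below untreated, it fell by 0.58 on the log2 scale at 24 h, by 0.48 at 36 h and by 0.83 at 48 h (adjusted p = 0.000129, 0.00098 and 8.44e-07), the last to 0.563 of the untreated signal. Its place among increases was 41 at 2 h and 29 at 6 h, and at 48 h it stood at place 222 from the lowest change up. The fall came in 2 called steps, -0.54 ± 0.10 from 6 h to 12 h (adjusted p = 0.00719) and -0.91 ± 0.10 from 12 h to 24 h (adjusted p = 1.45e-05). The first step missed the threshold without the 6 h replicate 2 (-0.52, adjusted p = 0.0517). It also did so without replicate 2 of every group (-0.50, adjusted p = 0.239) and without replicate 3 of every group (-0.54, adjusted p = 0.0945). From 24 h to 36 h the difference was 0.10 and from 36 h to 48 h -0.35, neither called (adjusted p = 0.767 and 0.264). The second was called with array weights (-0.54, adjusted p = 0.00456).

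The increases of Angptl1 at 1 h and 12 h were less secure. At 1 h it rose by 0.43 ± 0.10 (adjusted p = 0.0388), and the call ended without the untreated replicate 2 (0.35, adjusted p = 0.252), the untreated replicate 3 (0.40, adjusted p = 0.171) or any of the 1 h replicates 1, 2 and 3 (0.42, 0.43 and 0.43, adjusted p = 0.126, 0.108 and 0.138). At 12 h it rose by 0.33 ± 0.10 (adjusted p = 0.0235), and this ended without the untreated replicate 2 (0.26, adjusted p = 0.142), the untreated replicate 3 (0.30, adjusted p = 0.084), the 12 h replicate 1 (0.30, adjusted p = 0.0896) or the 12 h replicate 3 (0.34, adjusted p = 0.0501). At 36 h the fall was smaller without replicate 1 of every group (-0.24, adjusted p = 0.107). In the order of group means, from 48 h (4.10) to 6 h (5.80), untreated was above 36 h (adjusted p = 0.00098), and no other neighbours differed.

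Levels at 24 h and 48 h together were lower than those at 12 h and 36 h for Angptl1 (-0.63 ± 0.072, adjusted p = 2.57e-05), where 2.29% of all genes were called, and for none of the other 5 genes. The Angptl1 mean was 5.26 at 12 h, and 4.35, 4.45 and 4.10 at 24, 36 and 48 h. Neither step after 24 h was called (limma adjusted p = 0.767 and 0.264), so an alternation of levels was neither shown nor excluded. With array weights the step from 36 h to 48 h was called (-0.54, adjusted p = 0.00456). Preadipocyte and fibroblast markers were also lower at 24 h and 48 h, but their mean was already lower at 6 h. Of 11, 8 fell at 24 h and 7 at 48 h, where 10.5% and 11.4% of all genes fell, and none rose. Their mean went from 8.02 on each untreated array to between 7.70 and 7.82 at 6 h and between 7.56 and 7.68 at 48 h. Of 7 smooth muscle and pericyte markers, 3 fell at 48 h, Acta2 at -2.365 (adjusted p = 4.66e-13), and of 8 macrophage markers 2 fell. At 6 h, when Angptl1 was highest, 3 of the 11 preadipocyte and fibroblast markers, 1 of the 7 smooth muscle and pericyte markers and 2 of the 8 macrophage markers had fallen, and none had risen. Of all genes, 8.18% had fallen by then. At 12 h, when Angptl1 was still above untreated, 9.38% of all genes had fallen. Of these lists, 5 of the 11, 4 of the 7 and 2 of the 8 markers had, in the same order. The part of these cells in the result was not tested, and in such bulk RNA fewer cells of a type and less RNA per cell cannot be told apart.

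The genes whose courses lay nearest were found from the root mean square difference over the 9 group means, each gene centred on its own mean, among 7610 other genes that changed over the course. For Angptl4 they were 2310001K24Rik (0.12), the ubiquitin ligase gene Rnf125 (0.12), Dlc1 (0.13), the growth arrest gene Gadd45g (0.13) and a probe set annotated to the microRNA gene Mir378a (0.14). Of these, Dlc1 rose by 0.70 ± 0.067 at 2 h and 0.55 ± 0.067 at 48 h (limma adjusted p = 9.71e-08 and 6.89e-07). Mir378a rose by 1.04 ± 0.15 at 1 h and 1.20 ± 0.15 at 48 h (adjusted p = 0.000299 and 1.3e-06). None of the 5 was called at 30 min, where 0.0479% of all genes were. Their changes then ran from 0.155 for Rnf125 (adjusted p = 0.659) to 0.74 for Mir378a (adjusted p = 0.092), beside 0.54 for Angptl4. The lack of calls therefore does not show that Angptl4 rose earlier than these genes.

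For Angptl8 the nearest were Ppp1r3c (0.11), Stk17b, Hoxb2, Zfp189 and Ppp1r3b (0.14 to 0.15). Ppp1r3c and Ppp1r3b encode subunits that bring protein phosphatase 1 to glycogen, Stk17b a kinase, and Hoxb2 and Zfp189 transcription factors. Ppp1r3c changed by -0.71 ± 0.075 at 1 h (adjusted p = 1.76e-06) and rose by 0.31 ± 0.075 at 24 h (adjusted p = 0.0032). Ppp1r3b changed by -0.52 ± 0.098 at 1 h (adjusted p = 0.00481) and rose by 0.47 ± 0.098 at 24 h (adjusted p = 0.000897), when Angptl8 was at 0.01.

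For Angptl1 the nearest courses were less close, at 0.21 to 0.23: Rgr, the microglial receptor gene Trem2, the clock factor Npas2, the matrix peroxidase Pxdn and Mettl7b. Npas2 rose by 0.44 ± 0.11 at 2 h (adjusted p = 0.0134) and fell by 0.92 on the log2 scale at 48 h (adjusted p = 4.35e-07). Pxdn was not called at 2 h (0.13, adjusted p = 0.433) and fell by 1.09 at 48 h (adjusted p = 1.56e-10). The nearest member was Lpl for Angptl4 (0.33) and Angptl1 (0.52) and Lmf1 for Angptl8 (0.31). Lpl and Lmf1 were nearly level, with spans of 0.22 and 0.23, and this measure favours a level gene over one moving another way. Being nearest here does not show a like course.

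**Figure D3:**
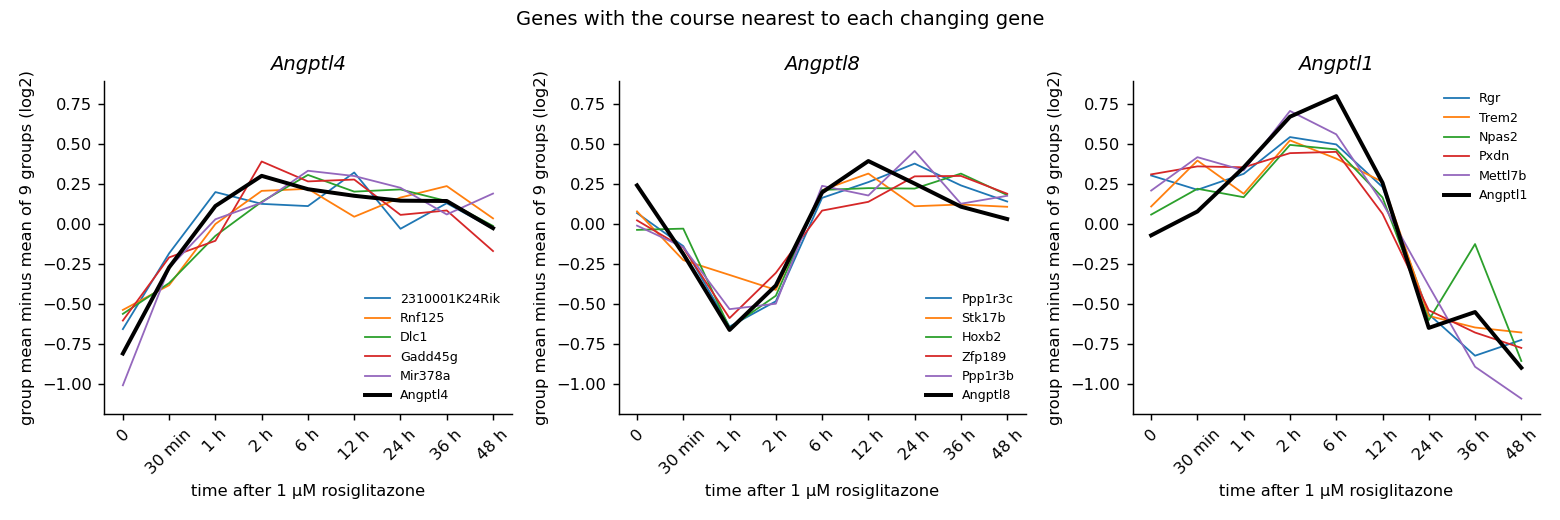
Group means over the 9 groups, each gene centred on its own mean (log2), for Angptl4, Angptl8 and Angptl1 (black) and the 5 genes of smallest root mean square difference to each (coloured). The coloured lines follow Angptl4 and Angptl8 within 0.15 or less on average, and lie 0.21 to 0.23 from Angptl1, below its peak at 6 h.

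Other genes of the pathway were counted from lists, with 4 per list named at most, the ones of smallest F-test p. Of all genes, 3.04%, 8.39%, 10.1% and 12.6% rose at 2, 6, 24 and 48 h, and 2.87%, 8.18%, 10.5% and 11.4% fell. Among the other angiopoietin family genes, 4 were measured (Angpt1, Angpt2, Angpt4 and Angptl7), and 3 fell at 24 h and 2 at 48 h, and none rose. Angpt1, a ligand that steadies vessels through the receptor TIE2, fell by 0.79 on the log2 scale at 6 h and by 1.24 at 48 h (limma adjusted p = 0.000109 and 7.38e-08). Angpt4 fell by 0.36 at 48 h (adjusted p = 0.0424), at a level of 4.33 against 4.69, and its arrays overlapped with untreated. Of the 4 genes, 3 were below the median gene in level. After centring or a further quantile normalization, 2 fell at 24 h and 1 at 48 h.

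Of 12 genes of lipase folding and secretion, 6 fell at 48 h and none rose, with a median of -0.17 beside 0.013 for all genes. Lmf2, the relative of Lmf1, fell by 0.39 (SE 0.086, adjusted p = 0.00136), Os9, which recognises misfolded glycoproteins, by 0.60 (adjusted p = 8.23e-06), and Sdc1, the proteoglycan syndecan, by 0.27 (adjusted p = 0.0164). After centring, 3 fell and 1 rose at 48 h, and at 6 h 3 rose and none fell where 1 had fallen and none had risen. Of 4 proprotein convertases, which cut lipase and angiopoietin-like proteins, Furin alone fell, by 0.40 at 6 h and 0.45 at 48 h (adjusted p = 0.00144 and 0.000333).

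Of 17 genes of heparan sulfate and its core proteins, which hold lipase at the cell surface, 4 fell and 3 rose at 48 h. Col18a1 fell by 0.89, Hspg2, which encodes perlecan, by 0.68 and the syndecan gene Sdc2 by 0.42 (adjusted p = 3.71e-07, 3.4e-07 and 9.24e-05). At 24 h 1 rose and 4 fell, which centring turned to 4 and 3. Of 6 other genes of the lipase family, all below the median gene in level, none was called at 48 h, and Lipi alone was called at 1 h, at a level of 2.30 against 2.55.

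Of 12 apolipoprotein genes, none was called at 6 h, 6 fell at 24 h, and at 48 h 4 fell and 1 rose. Apoc2, the activator of lipoprotein lipase, fell by 0.43 at 12 h and by 0.32 at 48 h (adjusted p = 0.000558 and 0.00646). Apoa4 was not called at 6 h (-0.01, adjusted p = 0.986) and fell by 1.55 at 48 h (adjusted p = 4.08e-07). After centring, 4 fell and 1 rose at 24 h. Among 9 lipoprotein and sorting receptors, 3 fell and none rose at 48 h. Lrp1, a large receptor that clears lipase with lipoprotein remnants, fell by 0.54 and Sort1, the sorting receptor sortilin, by 0.37 (adjusted p = 7.37e-07 and 7.75e-05). Scarb1, the HDL receptor, rose by 0.29 at 12 h (adjusted p = 0.00101) and was not called at 48 h (0.11, adjusted p = 0.203).

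Of 8 genes for the uptake of the freed fatty acids, 5 rose and 1 fell at 6 h, and 3 rose and 1 fell at 48 h. Cd36, the fatty acid translocase, rose by 0.27 at 6 h and 0.43 at 48 h (adjusted p = 0.0227 and 0.000256), and Fabp5, a fatty acid binding protein, by 0.39 at 48 h (adjusted p = 2.56e-05). Cav1, the caveolar coat protein, fell by 0.40 at 48 h (adjusted p = 1.28e-05). Of 17 transcription factors known to act on Lpl or the angiopoietin-like genes, 4 rose and 2 fell at 2 h, and 4 rose and 7 fell at 48 h. Rxrg, a partner receptor of PPARγ, rose by 0.93 ± 0.11 at 2 h (adjusted p = 1.67e-06), when Pparg fell by 0.63 (adjusted p = 4.41e-09). Mlxipl, which encodes the glucose sensor ChREBP, fell by 0.56 at 12 h (adjusted p = 1.16e-06), and Srebf1 fell by 0.41 at 48 h (adjusted p = 1.57e-05). Among the 115 called changes of the 30 named genes of these lists, none turned its sign under centring or a further quantile normalization, while 23 and 6 were no longer called.

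**Figure D4:**
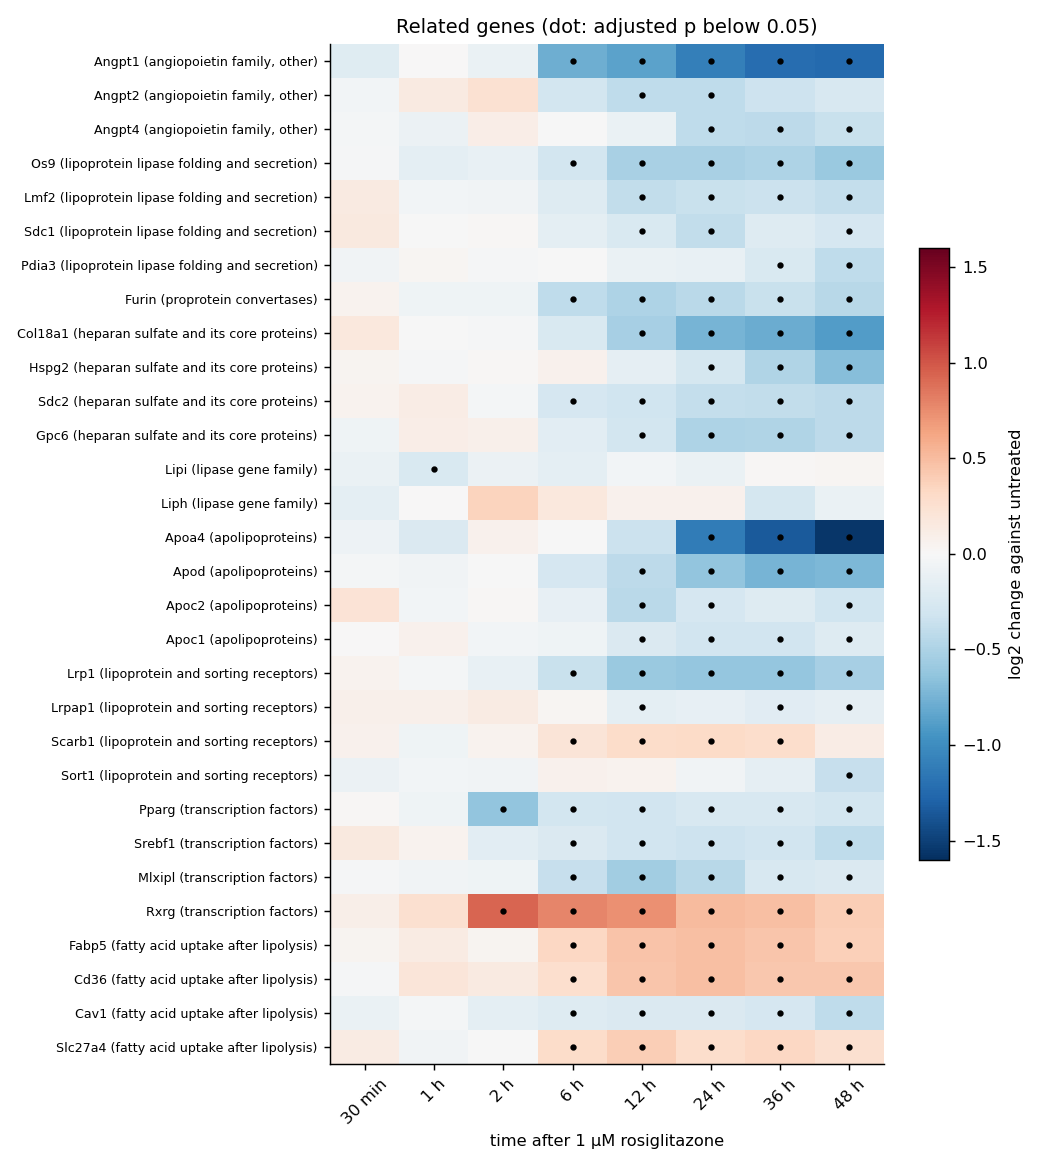
Log2 change against untreated (colour) of the 30 named related genes at 8 times after 1 µM rosiglitazone, with a dot where the limma adjusted p was below 0.05 and the list of each gene in brackets. Of the 115 called changes, 3 come before 6 h, the largest decrease is Apoa4 at 48 h (-1.55) and the largest increase is Rxrg at 2 h (0.93).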

How the data were processed

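The authors deposited log2 intensities per probe set of 27 arrays. Partek and RMA are the tools named, per the submitters' processing notes, with no version. RMA subtracts background, equalises the arrays and merges the probes of a set, and the log2 scale was read from the range of the values. For the probe annotation the genome build is not given in the sources used here. Of 28815 probe sets, 21153 carried 1 gene symbol, 1867 several and 5795 none in the platform annotation, and Entrez identifiers matched 21123 to the RefSeq gene table. Where a gene had several, the probe set of highest mean was used, which gave 18781 genes, with no filter on dim genes. No arrays were identical (0 pairs).

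In R 4.3.3, limma 3.58.1 estimated the 9 group means from all arrays with no covariate. All pairs of groups, the mean of 24 h and 48 h against that of 12 h and 36 h, and the F-test over the 8 differences from untreated were tested two-sided, and p-values were adjusted by Benjamini-Hochberg across genes within each comparison. The code was tested on simulated data. Tables and plots used Python 3.11.15, pandas 2.3.3, numpy 2.4.6 and matplotlib 3.10.9. The members and lists were chosen with earlier results of these data known. All members were named, with up to 4 genes per related list by F-test p and the 5 nearest courses to each member that changed over the course and spanned at least 0.5. Some listed genes, among them Angptl6, Acsl1, Lipc, Pnlip, Ndst1, Nr1h2, Pdia4, Pcsk2, Pcsk7 and Ly6a, were not analysed here. The number of arrays limits the precision. Alternatives were the replicate number as a block, brighter genes alone, averaged probe sets, median centring, a further quantile normalization, trended robust variance, array weights, the 6 arrays compared and leaving out replicates. Leaving out single arrays, and the alternatives for pairs of treated times that are not neighbours, were added after the results were seen.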

Additional observations from a re-analysis of the deposited data

How the results depend on the processing

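No called change of the 6 genes turned its sign under any alternative run. Of the alternatives chosen at the outset for counts of called genes, 99 stayed within 1.5 times of the main count, 7 were lower and 2 higher. The count at 30 min fell from 1 to 0 with the 6 arrays compared alone, and was 0 to 0 without replicate 1, 2 or 3 of every group. The count at 12 h was 1 to 2 and that at 36 h 1 to 2 without replicate 1, 2 or 3 of every group, against 2. It was 1 at 12 h without the untreated replicate 2 or 3 or the 12 h replicate 1 or 3. The members that changed over the course numbered 5 in place of 3 among brighter genes alone and with trended robust variance, with Lpl (adjusted p = 0.0259 and 0.00313) and Lmf1 (adjusted p = 0.028 and 0.0208) added. Of the genes tested, 72.1% changed among brighter genes, which leave out Gpihbp1, and 41.5% with trended robust variance, beside 40.5% in the main model. In those settings Lpl was also lower at 48 h than in untreated cells (-0.15, adjusted p = 0.0239 and 0.00858). Neither Lpl nor Lmf1 was called over the course without replicate 1, 2 or 3 of every group. Fewer genes were tested among brighter genes, but the cause of these results was not tested.

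Arrays of the same replicate number were less alike than arrays of different numbers. Over 108 same-numbered pairs the median correlation of deviations from group means across genes was -0.13, and 3 pairs were above 0.1. Over 216 pairs of different numbers the median was 0.05, and 70 pairs were above 0.1. Of the 27 arrays, 0 correlated best with their own number. The cause of this pattern was not tested. With the replicate number as a block, Angptl1 at 1 h missed the threshold (0.43, adjusted p = 0.0768), and no other change against untreated crossed it. Between treated times, the block also ended the calls of Lmf1 from 2 h to 24 h (0.20, adjusted p = 0.0641) and of Angptl8 from 12 h to 48 h (-0.36, adjusted p = 0.07). Subtracting array medians shifted the typical gene's change by up to 0.086 (at 6 h) and the share of increases among called genes from 50.6% to 76.5% there. Averaging the probe sets of a gene changed no call of the 6 genes, and since each had 1 probe set, a fit of another probe set of a member was not run. The 3 arrays per group limit the precision.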
